A study of Sus scrofa with 12 samples.

Results

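The proteasome is the barrel-shaped protease that degrades most short-lived, damaged and ubiquitin-tagged proteins of a cell. Its 20S core is a stack of rings, with outer rings of alpha subunits that gate the entrance and inner rings of beta subunits, of which PSMB5, PSMB6 and PSMB7 carry the cutting sites. The 19S cap recognises ubiquitin chains, and a ring of ATPases, the PSMC subunits, unfolds the substrate and opens the gate. Under interferon gamma, cells exchange the cutting subunits for PSMB8, PSMB9 and PSMB10 and add the PA28 activator made of PSME1 and PSME2. The resulting immunoproteasome trims peptides for MHC class I molecules and is abundant in leukocytes. Heart muscle relies on the constitutive form for the turnover of contractile proteins, while inflammatory cells that enter an infarct carry the interferon-inducible form.

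The genes described here are those whose symbol on the array starts with PSMA, PSMB, PSMC, PSMD, PSME, PSMF or PSMG. They were 25 of the 10912 genes named by the array, 21 of them constitutive and 4 of the immunoproteasome (PSMB8, PSMB9, PSME1 and PSME2). RNA came from the infarcted heart of 12 female Large White pigs, each pig on its own array, in 3 groups of 4. All pigs had an infarct made by balloon occlusion of a coronary artery with reperfusion, and all received an intrapericardial injection on day 3 post-infarction. AMI/Placebo received the vehicle, AMI/S-endMSCs received a concentrate of what mesenchymal stromal cells of menstrual blood secrete in culture (the paper writes S-MenSCs), called the basal secretome below, and AMI/S-endMSCs* received that of the same cell type primed with IFNγ and TNFα, the primed secretome. The tissue was the anterior wall of the left ventricle, taken on day 7 post-therapy. There was no healthy or untreated heart among the groups, so every difference is between infarcts. Minced tissue holds many cell types, and fewer cells of a type cannot be told apart from less RNA per cell.

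Values are log2 values of a probe set after normalization by the authors, so a difference of 1 is a doubling, and they compare pigs within a gene, not levels between genes. The value of a gene in a comparison is its log2 fold change, the mean of the first group minus that of the second. A gene was called different at an unadjusted p under 0.05 in limma, the threshold the study used. The Benjamini-Hochberg adjusted p over all 27558 probe sets stands beside it for proteasome genes called with all pigs and the brighter probe set. At an adjusted p under 0.05, 0 of the 10912 named genes passed in any of the 3 comparisons. This holds for the proteasome genes and for every other gene named below.

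The arrays were not equally contrasted. The interquartile range of an array's values ran from 1.66 to 2.51, and it was lowest in AMI/S-endMSCs replicate 1 (1.66), AMI/Placebo replicate 4 (1.80), AMI/S-endMSCs* replicate 4 (1.81) and AMI/S-endMSCs replicate 4 (1.93). AMI/S-endMSCs replicate 1 also had the lowest mean correlation with the other arrays, 0.821, against 0.875 to 0.911 for the rest. Values that moved most without this pig are given with and without it. All 15 measured cardiomyocyte markers lay above the median probe set, so the labelled heart tissue was recognisable. Their summed level differed between pigs: the mean of the 15 markers, each taken around its own average, ran from -1.24 to 0.64 in AMI/Placebo, from -1.71 to 0.12 in AMI/S-endMSCs and from -1.16 to 1.67 in AMI/S-endMSCs*. In AMI/S-endMSCs* 3 of the 4 pigs were at 1.32 or higher and replicate 2 was at -1.16.

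The array named 5 of the 8 alpha subunits (PSMA3, PSMA4, PSMA5, PSMA6 and the testis form PSMA8), 4 of the 7 constitutive beta subunits (PSMB4 to PSMB7), 5 of the 6 ATPases of the 19S base (PSMC1, PSMC2, PSMC3, PSMC5 and PSMC6), 1 of the 8 lid subunits (PSMD13) and 4 of the 7 assembly chaperones (PSMD5, PSMD10, PSMG3 and PSMG4). PSME3, the nuclear activator of the 20S core, and PSMF1, an inhibitor of it, completed the set. PSMB10, the third inducible cutting subunit, had no probe set under its name and was not analysed here, and PSMD4 shared its probe set with PIP5K1A. Averaged over all pigs, 24 of the 25 genes were above the median probe set, and 20 were among the 2728 named genes of highest mean, called bright genes below. The exception was PSMA8, at 1.88 ± 0.14 (SD, n = 4) in AMI/Placebo, 1.89 ± 0.33 in AMI/S-endMSCs and 1.74 ± 0.46 in AMI/S-endMSCs*, against a median probe set of 2.78.

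**Figure D1:**
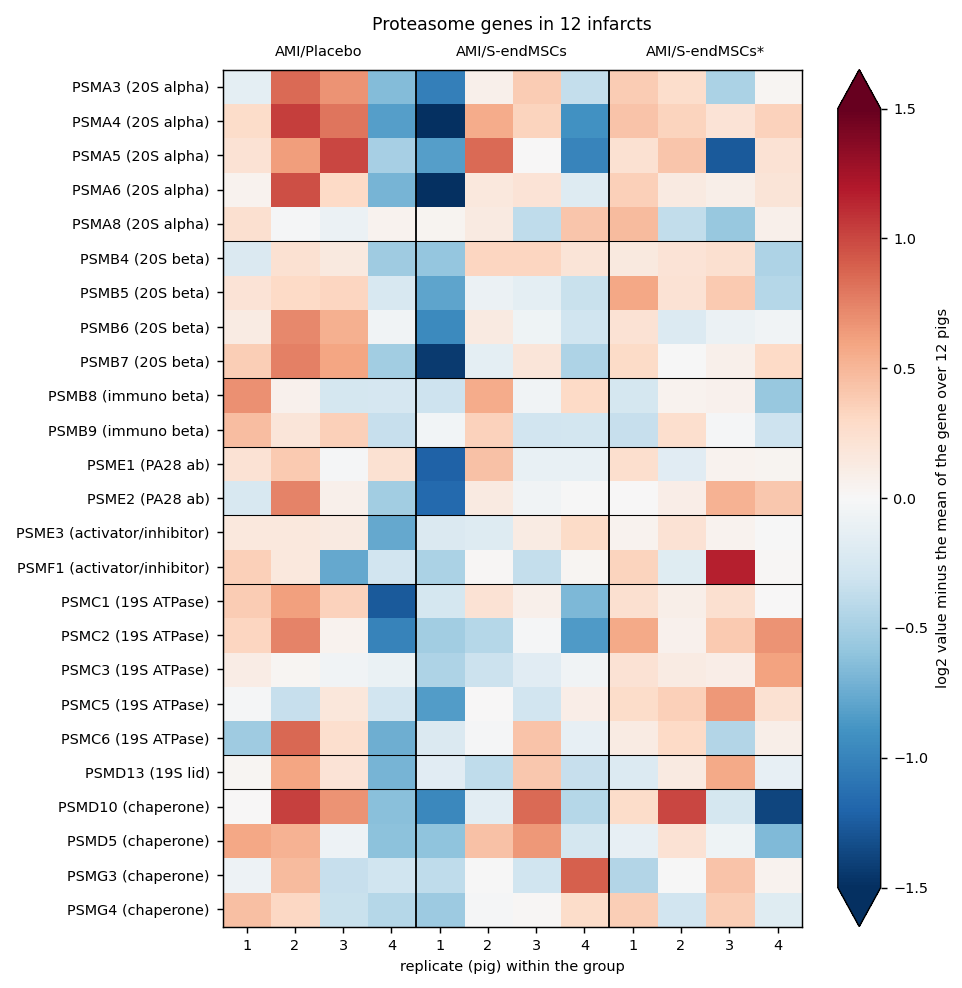
Log2 value of each of the 25 proteasome genes (rows, grouped by role) in each of the 12 pigs (columns, by group and replicate), minus the mean of that gene over all pigs. Red is above and blue below the mean, with colours saturating at 1.5; AMI/S-endMSCs replicate 1 and AMI/Placebo replicate 4 are blue over most rows.

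The constitutive genes (20S core, 19S cap, chaperones, PSME3 and PSMF1) varied more from pig to pig than from group to group. The mean of the 21 constitutive genes, each taken around its own average, was 0.14, 0.50, 0.21 and -0.53 in AMI/Placebo replicates 1 to 4, -0.73, 0.05, 0.11 and -0.19 in AMI/S-endMSCs, and 0.23, 0.14, 0.09 and -0.02 in AMI/S-endMSCs*. The groups overlapped, with SDs of 0.44, 0.38 and 0.10. The 4 pigs with the lowest values were the 4 with the lowest interquartile range of the array, and the part of array contrast in these values was not tested. Across the 12 pigs, the 36 pairs of constitutive 20S genes had a median Pearson r of 0.65 and the 15 pairs of 19S genes one of 0.49, beside 0.30 for pairs of bright genes. With the group means removed, the 20S pairs had a median r of 0.69 and the 19S pairs 0.20, beside 0.31 for pairs of bright genes. These correlations are across pigs that share array contrast, and genes are not independent replicates.

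All 3 cutting subunits of the constitutive core had a lower mean after the basal secretome than after placebo, and 2 were called. In AMI/S-endMSCs against AMI/Placebo, 0 of the 25 proteasome genes were called higher and 2 lower, PSMB6 and PSMB7. Over all 10912 genes, 2.6% were called higher and 1.83% lower, and 4.03% of the bright genes, where most proteasome genes lie, were called lower. The 25 genes had a median log2 fold change of -0.23, with 6 above 0 and 19 below. The median was 0.01 over all genes and -0.24 over the bright genes, of which 21.5% were above 0, so the shift of the proteasome genes was of the size found among bright genes. The lowest adjusted p of the 25 genes was 0.857. Groups that do not overlap, found for 2.73% of all genes, were found for 0 of the 25.

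PSMB7, the trypsin-like subunit, read 6.92, 7.30, 7.14 and 6.03 in AMI/Placebo, 5.12, 6.40, 6.73 and 6.09 in AMI/S-endMSCs, and 6.83, 6.54, 6.62 and 6.85 in AMI/S-endMSCs*. Of the placebo pigs 3 were above every pig given the basal secretome and replicate 4 was below 3 of them, so the groups overlapped. The difference was -0.77 (SE 0.346, limma unadjusted p = 0.0443, adjusted p = 0.857), a fold of 0.588. PSMB6, the caspase-like subunit, read 5.18, 5.77, 5.58 and 5.0 in AMI/Placebo, 4.09, 5.18, 4.98 and 4.76 in AMI/S-endMSCs, and 5.26, 4.84, 4.96 and 5.0 in AMI/S-endMSCs*. Replicates 1 and 4 of AMI/Placebo were within the range of AMI/S-endMSCs, and the difference was -0.63 (SE 0.267, limma unadjusted p = 0.0337, adjusted p = 0.857), a fold of 0.647. Without AMI/S-endMSCs replicate 1 neither gene was called: PSMB6 was at -0.41 (unadjusted p = 0.118) and PSMB7 at -0.44 (unadjusted p = 0.165). The same held without AMI/S-endMSCs replicate 4 (-0.63 and -0.77, unadjusted p = 0.0558 and unadjusted p = 0.0710), AMI/Placebo replicate 2 (-0.50 and -0.62, unadjusted p = 0.102 and unadjusted p = 0.123) or AMI/Placebo replicate 3 (-0.56 and -0.67, unadjusted p = 0.0824 and unadjusted p = 0.106). PSMB7 alone was also not called without AMI/Placebo replicate 1 (-0.74, unadjusted p = 0.0801) or without any 1 pig of AMI/S-endMSCs*, which leaves its value at -0.77 and changes the shared estimate of spread (unadjusted p from 0.0512 to 0.0536).

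PSMB5, the chymotrypsin-like subunit and the third of the constitutive cutting sites, read 3.77, 3.85, 3.88 and 3.32 in AMI/Placebo, 2.77, 3.47, 3.41 and 3.23 in AMI/S-endMSCs, and 4.13, 3.77, 3.95 and 3.13 in AMI/S-endMSCs*. In AMI/Placebo 3 pigs were above all pigs of AMI/S-endMSCs, and AMI/S-endMSCs* held both the highest pig and a low one. Its difference of -0.49 (95% interval -1.05 to 0.08) in AMI/S-endMSCs against AMI/Placebo did not pass the test (unadjusted p = 0.0861). PSMB4, a beta subunit without a cutting site, had the largest positive value of the 25 in this comparison, 0.16 (unadjusted p = 0.578), at 6.16 ± 0.35 in AMI/Placebo against 6.32 ± 0.43 in AMI/S-endMSCs, with 6.29 ± 0.34 in AMI/S-endMSCs*. Without AMI/S-endMSCs replicate 1, PSMB4 was at 0.37 (unadjusted p = 0.175) and PSMB5 at -0.34 (unadjusted p = 0.230).

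Of the 5 alpha subunits, which form the gate of the core, 4 had a negative value in AMI/S-endMSCs against AMI/Placebo and none was called. PSMA4 read 6.16, 6.92, 6.68 and 5.05 in AMI/Placebo, 3.31, 6.44, 6.21 and 4.97 in AMI/S-endMSCs, and 6.31, 6.22, 6.08 and 6.23 in AMI/S-endMSCs*. The pigs given the basal secretome were far apart (SD 1.44), while those given the primed secretome were nearly equal (SD 0.09). The difference of -0.97 had the widest interval of the 25 genes (-2.21 to 0.26, unadjusted p = 0.112), and it was -0.33 without AMI/S-endMSCs replicate 1. PSMA3, PSMA5 and PSMA6 were at -0.41, -0.57 and -0.50 (unadjusted p = 0.293, unadjusted p = 0.240 and unadjusted p = 0.227), and at -0.14, -0.38 and -0.10 without that pig.

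**Figure D2:**
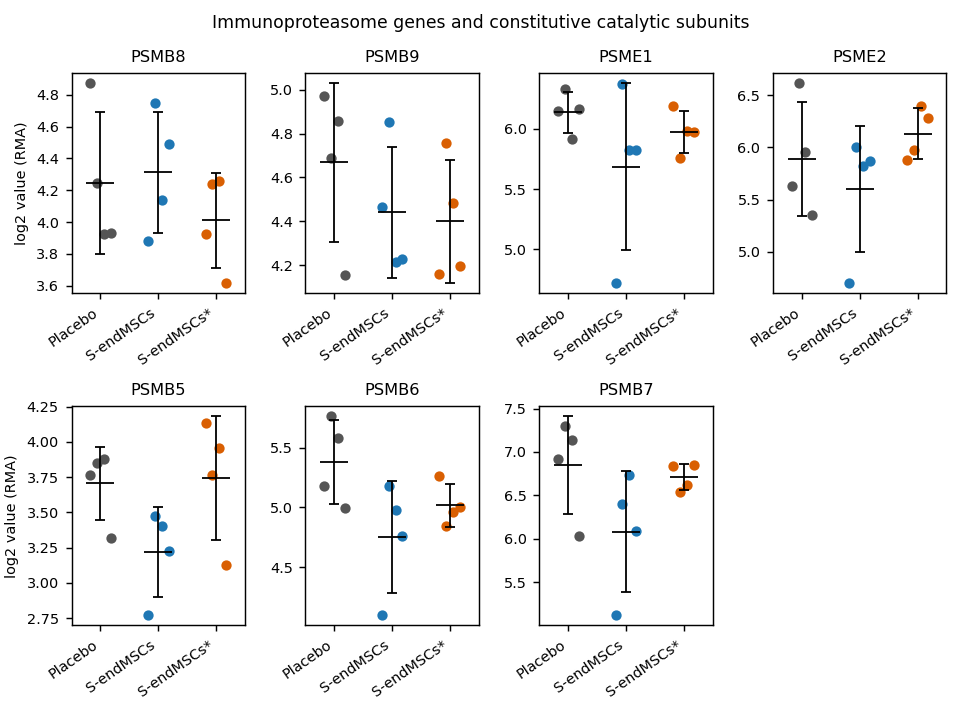
Log2 values of the 4 immunoproteasome genes (upper row) and of the 3 constitutive cutting subunits (lower row), 1 point per pig, with the group mean (horizontal line) and SD (bars, n = 4). In the lower row PSMB6 and PSMB7 have means of 4.75 and 6.08 in S-endMSCs against 5.38 and 6.85 in Placebo, with overlapping points; in the upper row the groups overlap for every gene.

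The immunoproteasome genes did not separate the groups. With all pigs and the brighter probe set of each gene, none of the 4 was called in any comparison, and all 3 groups overlapped for each gene. Their median log2 fold change was -0.26 in AMI/S-endMSCs against AMI/Placebo, -0.20 in AMI/S-endMSCs* against AMI/Placebo and 0.12 in AMI/S-endMSCs* against AMI/S-endMSCs. The median over all genes was 0.01, 0.01 and -0.02 in the same order. That over the bright genes was -0.24, -0.03 and 0.19, and PSMB9, PSME1 and PSME2 lie among these while PSMB8 does not.

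PSMB8, which takes the place of PSMB5, read 4.87, 4.25, 3.92 and 3.93 in AMI/Placebo, 3.88, 4.75, 4.14 and 4.49 in AMI/S-endMSCs, and 3.93, 4.24, 4.26 and 3.62 in AMI/S-endMSCs*. The highest pig was a placebo pig and the lowest was one given the primed secretome, with the rest mixed. The secretome of primed cells against placebo gave -0.23 (95% interval -0.83 to 0.36, unadjusted p = 0.414), and primed against basal gave -0.30 (interval -0.90 to 0.29, unadjusted p = 0.294).

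PSMB9, which takes the place of PSMB6, read 4.97, 4.69, 4.86 and 4.16 in AMI/Placebo, 4.47, 4.85, 4.22 and 4.23 in AMI/S-endMSCs, and 4.16, 4.76, 4.48 and 4.20 in AMI/S-endMSCs*. In AMI/Placebo 3 of 4 pigs were at 4.69 or above, compared with 1 of 4 in each treated group. The differences were -0.23 (interval -0.76 to 0.31, unadjusted p = 0.377) for the basal and -0.27 (interval -0.80 to 0.27, unadjusted p = 0.299) for the primed secretome against the same placebo pigs. A dimmer probe set of PSMB9 gave another picture, at 3.31, 3.46, 2.72 and 4.88 in AMI/Placebo and 2.48, 2.88, 2.82 and 2.42 in AMI/S-endMSCs. There the log2 fold change of the basal secretome against placebo was -0.94 (unadjusted p = 0.0288), with placebo replicate 4 the highest pig, although that pig was the lowest of all 12 on the brighter probe set. The r between both probe sets over the 12 pigs was -0.04, so this gene has no single value on the array.

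PSME1 and PSME2 form the inducible PA28 cap that opens the core without ATP. PSME1 read 6.15, 6.33, 5.91 and 6.16 in AMI/Placebo, 4.73, 6.37, 5.83 and 5.82 in AMI/S-endMSCs, and 6.19, 5.76, 5.98 and 5.98 in AMI/S-endMSCs*. PSME2 read 5.63, 6.61, 5.95 and 5.36 in AMI/Placebo, 4.71, 6.0, 5.83 and 5.87 in AMI/S-endMSCs, and 5.88, 5.98, 6.40 and 6.28 in AMI/S-endMSCs*. AMI/S-endMSCs replicate 1 was the lowest pig for both, more than 0.6 below any other. PSME1 differed by -0.45 (unadjusted p = 0.152) in AMI/S-endMSCs against AMI/Placebo and PSME2 by 0.53 (interval -0.17 to 1.23, unadjusted p = 0.128) in AMI/S-endMSCs* against AMI/S-endMSCs, and without that pig these values were -0.13 and 0.23. Without AMI/S-endMSCs replicate 2, PSME1 was at -0.68 and called (unadjusted p = 0.0354).

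The balance of inducible over constitutive cutting subunit was described per pig as the log2 value of PSMB8 minus that of PSMB5, each taken around its own mean. It was 0.47, -0.24, -0.59 and -0.02 in AMI/Placebo, 0.48, 0.64, 0.10 and 0.63 in AMI/S-endMSCs, and -0.84, -0.16, -0.33 and -0.14 in AMI/S-endMSCs*. All pigs of AMI/S-endMSCs were above 0 and all of AMI/S-endMSCs* below, with placebo pigs on both sides. This difference was chosen after its values were seen and carries no test. How often differences of other gene pairs separate these groups was not counted. PSMB9 minus PSMB6 did not share the pattern, with means of -0.17 ± 0.37, 0.24 ± 0.49 and -0.07 ± 0.44 in AMI/Placebo, AMI/S-endMSCs and AMI/S-endMSCs*. For the activators, AMI/S-endMSCs was the lowest group. In the same order, PSME1 minus PSME3 had means of 0.28, -0.25 and -0.04, and PSME2 minus PSME3 of 0.09, -0.27 and 0.18.

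**Figure D3:**
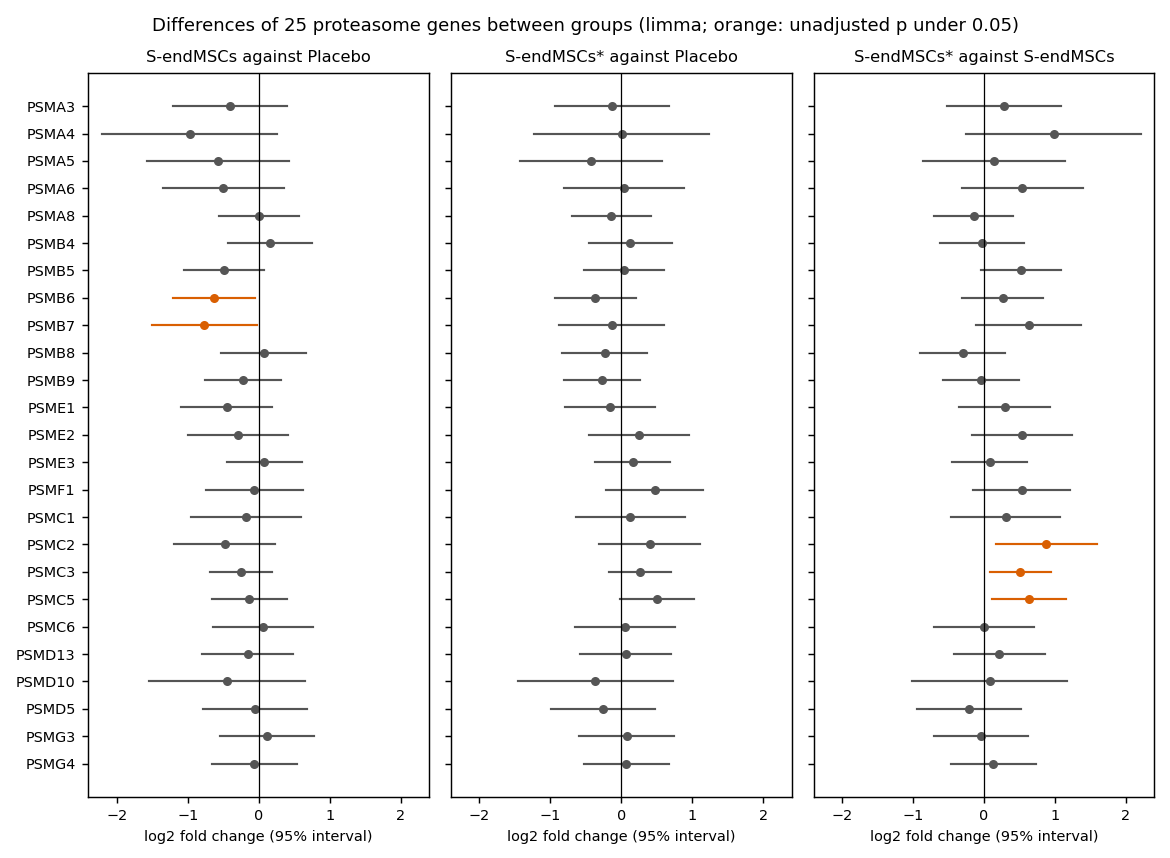
Log2 fold change of each of the 25 proteasome genes in the 3 comparisons, with the 95% interval from limma (12 arrays); orange marks an unadjusted p under 0.05. The orange genes are PSMB6 and PSMB7 (lower) in the left panel and PSMC2, PSMC3 and PSMC5 (higher) in the right panel, with none in the middle panel.

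In AMI/S-endMSCs* against AMI/Placebo, 0 of the 25 proteasome genes were called, where 3.23% of all genes were called (1.95% higher and 1.28% lower). The values had a median of 0.04, with 15 above 0 (60%) and 10 below, beside a median of 0.01 and 51.0% above 0 over all genes and of -0.03 and 46.6% over the bright genes. They ranged from -0.43 (PSMA5, unadjusted p = 0.371) to 0.50 (PSMC5). All 6 measured genes of the 19S cap, 5 of them ATPases, had a positive value, with a median of 0.19. The mean of these 6, each taken around its own average, was 0.05, 0.42, 0.16 and -0.68 in AMI/Placebo replicates 1 to 4. In AMI/S-endMSCs* it ran from 0.18 to 0.25, so placebo replicate 2 was above all primed pigs and replicate 4 far below. The probe set that PSMD4 of the cap shares with PIP5K1A was at -0.01. Of the 9 constitutive 20S genes 5 had a negative value, with a median of -0.13 over the 9. Among genes of the core, PSMB6 was at -0.37 (95% interval -0.94 to 0.21, unadjusted p = 0.193), PSMB7 at -0.14 (unadjusted p = 0.698) and PSMB5 at 0.04 (unadjusted p = 0.881). PSMF1, which binds the core and inhibits it in the test tube, was at 0.47 (interval -0.22 to 1.16, unadjusted p = 0.167), with AMI/S-endMSCs* replicate 3 the highest of all pigs at 5.83. Both secretomes were compared with the same 4 placebo pigs, so these values are not independent of those above.

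Of the 5 measured ATPases of the 19S base, 3 were called higher after the primed than after the basal secretome. In AMI/S-endMSCs* against AMI/S-endMSCs, 3 of the 25 proteasome genes were called, all higher and all of this ring: PSMC2, PSMC5 and PSMC3. Of all genes 4.81% were called higher and 2.47% lower, and 12.1% of the bright genes were called higher, so 3 of 25 was a share near that of bright genes. The 25 genes had a median of 0.26, with 18 above 0, beside -0.02 over all genes and 0.19 over the bright genes, and the lowest adjusted p was 0.608. In 3 of the 25 genes the 4 pigs of each group did not overlap, a separation found upwards in 1.79% of all genes and 3.85% of the bright genes.

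PSMC2 read 5.33, 5.75, 5.05 and 4.00 in AMI/Placebo, 4.49, 4.58, 4.99 and 4.15 in AMI/S-endMSCs, and 5.57, 5.07, 5.40 and 5.68 in AMI/S-endMSCs*. Every pig given the primed secretome was above every pig given the basal one, and the placebo pigs spanned both. The difference was 0.88 (SE 0.333, limma unadjusted p = 0.0197, adjusted p = 0.608), a fold of 1.84. Against AMI/Placebo, PSMC2 was at -0.48 (unadjusted p = 0.172) after the basal and 0.40 (unadjusted p = 0.252) after the primed secretome. Without AMI/Placebo replicate 4, the lowest pig, the basal value was -0.82 (unadjusted p = 0.00882). Over the alternatives of the closing section, the primed value against AMI/Placebo ran from 0.05 to 0.64.

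PSMC5 read 5.78, 5.45, 5.96 and 5.50 in AMI/Placebo, 4.96, 5.80, 5.51 and 5.90 in AMI/S-endMSCs, and 6.07, 6.15, 6.45 and 6.02 in AMI/S-endMSCs*. The primed group lay above all 8 other pigs. Its difference was 0.63 (SE 0.244, limma unadjusted p = 0.0217, adjusted p = 0.609) from AMI/S-endMSCs and 0.50 (interval -0.02 to 1.02, unadjusted p = 0.0599) from AMI/Placebo, where 1.11% of all genes were separated upwards. PSMC5 was the single proteasome gene without overlap between AMI/S-endMSCs* and AMI/Placebo.

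PSMC3 read 5.89, 5.80, 5.73 and 5.67 in AMI/Placebo, 5.31, 5.46, 5.60 and 5.73 in AMI/S-endMSCs, and 5.99, 5.90, 5.87 and 6.38 in AMI/S-endMSCs*. The placebo pigs lay close together between the other groups and touched both, and the treated groups did not overlap. The difference was 0.51 (SE 0.201, limma unadjusted p = 0.0235, adjusted p = 0.610), a fold of 1.43. The remaining ATPases of the ring did not move alike: PSMC1 was at 0.30 (unadjusted p = 0.411), and PSMC6 at -0.002 (95% interval -0.71 to 0.70, unadjusted p = 0.996).

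**Figure D4:**
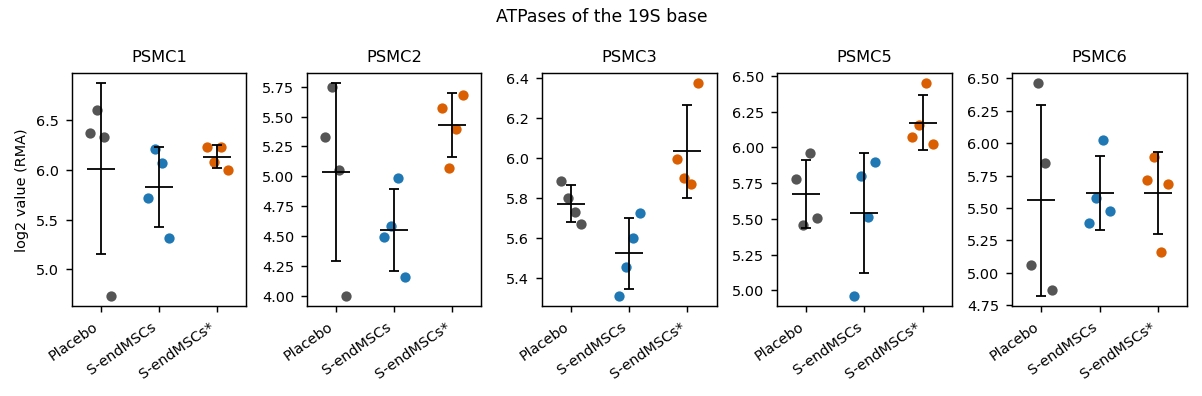
Log2 values of the 5 measured ATPases of the 19S base, 1 point per pig, with group mean (horizontal line) and SD (bars, n = 4). In PSMC2, PSMC3 and PSMC5 every S-endMSCs* pig lies above every S-endMSCs pig; in PSMC1 and PSMC6 the groups overlap.

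Cardiomyocyte markers were also higher in the primed group, and the calls of PSMC3 and PSMC5 were lost without AMI/S-endMSCs replicate 1. In AMI/S-endMSCs* against AMI/S-endMSCs, 12 of the 15 were called higher, none lower, with a median of 1.66 and values from 1.18 to 1.90. Of all genes 4.81% were called higher, and of the bright genes 12.1%. With the mean of these markers as a covariate, PSMC2 was at 0.86 (unadjusted p = 0.0633), PSMC3 at 0.42 (unadjusted p = 0.129) and PSMC5 at 0.55 (unadjusted p = 0.102), none of them called. Without the covariate the values were 0.88, 0.51 and 0.63. Within groups the r of PSMC2, PSMC3 and PSMC5 with this mean was 0.02, 0.35 and 0.18. The part of cell content in these calls was not tested. Without AMI/S-endMSCs replicate 1, PSMC2 was still called and PSMC3 and PSMC5 were not, at 0.44 (unadjusted p = 0.0561) and 0.44 (unadjusted p = 0.0739), and the median of the 21 constitutive genes was 0.04 instead of 0.26. PSMC2 was not called without AMI/S-endMSCs replicate 4 (0.74, unadjusted p = 0.0602) or AMI/S-endMSCs* replicate 4 (0.79, unadjusted p = 0.0503), PSMC3 was not without AMI/S-endMSCs* replicate 4 (0.40, unadjusted p = 0.0742), and PSMC5 was not without AMI/S-endMSCs* replicate 3 (0.54, unadjusted p = 0.0637).

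Among the other genes of the comparison of both secretomes, PSMA4 had the largest uncalled value, 0.98 (95% interval -0.25 to 2.21, unadjusted p = 0.110), followed by PSMB7 at 0.63 (unadjusted p = 0.0912) and PSMA6 at 0.54 (unadjusted p = 0.195). Without AMI/S-endMSCs replicate 1 these values were 0.34, 0.31 and 0.14. PSMB5 was at 0.53 (interval -0.04 to 1.09, unadjusted p = 0.0655), and at 0.38 without that pig. The assembly chaperones, which hold unfinished rings together, had values from -0.21 to 0.13, none of them called. PSMD5, a chaperone of the 19S base, had the lowest value of the 21 constitutive genes at -0.21 (unadjusted p = 0.550; -0.43 without that pig), at 3.25 ± 0.59 in AMI/S-endMSCs and 3.04 ± 0.37 in AMI/S-endMSCs*, beside 3.30 ± 0.56 in AMI/Placebo. PSMD10, the chaperone also called gankyrin, was at 0.08 (unadjusted p = 0.877), PSMG4 at 0.13 (unadjusted p = 0.646) and PSMG3 at -0.04 (unadjusted p = 0.892), and the lid subunit PSMD13 was at 0.22 (unadjusted p = 0.483).

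The spread of the proteasome genes was most often smallest among pigs given the primed secretome. The SD was smallest in AMI/S-endMSCs* for 16 of the 25 genes (64%), beside 37.9% of all genes and 41.9% of the bright genes. The median SD of the 25 genes was 0.50 in AMI/Placebo, 0.42 in AMI/S-endMSCs and 0.30 in AMI/S-endMSCs*. PSMA4 (SD 0.83, 1.44 and 0.09), PSMA6 (0.69, 0.83 and 0.11) and PSMC1 (0.86, 0.40 and 0.12) showed this most clearly in the heatmap of all pigs. PSMD10 went the other way, with SDs of 0.73, 0.76 and 1.002, and PSMA5 had a single low pig, AMI/S-endMSCs* replicate 3 at 3.49, against 4.96 or more in the rest of its group. The difference in spread was not tested, and with 4 pigs a single one sets an SD. PSMC1 was at 4.74 in AMI/Placebo replicate 4 and at 6.33 or more in the rest of that group. PSMA4 and PSMA6 were lowest in AMI/S-endMSCs replicate 1, at 3.31 and 4.29. Both pigs are among the 4 arrays of lowest interquartile range. The mean of the cardiomyocyte markers had its largest SD in AMI/S-endMSCs*, 1.35, beside 0.85 in AMI/Placebo and 0.79 in AMI/S-endMSCs.

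Beside the group comparisons, 14 proteasome genes were set against 3 marker means and the interquartile range of the array over the 12 pigs, 56 relations in all, and 0 passed Benjamini-Hochberg adjustment. The relation of highest r was that of the brighter PSMB9 probe set to the mean of 11 macrophage and monocyte markers, with Pearson's r of 0.86 (permutation p = 0.00158, adjusted p = 0.0503) and Spearman's rho of 0.83 (permutation p = 0.0017, adjusted p = 0.0762). The r was 0.87 within groups and 0.89 without the 2 pigs farthest from the median of the marker mean. The dimmer PSMB9 probe set had an r of -0.03 with the same mean, so the relation belongs to 1 of the 2 probe sets of the gene. This marker mean ran from -0.34 to 0.51 in AMI/Placebo, from -0.27 to 0.33 in AMI/S-endMSCs and from -0.74 to 0.27 in AMI/S-endMSCs*, and 9 of the 11 markers lay above the median probe set. The relation of PSMB9 to 5 general leukocyte markers was weaker, with r = 0.75 (permutation p = 0.00611, adjusted p = 0.0570) and rho = 0.80 (p = 0.00272, adjusted p = 0.0762), and r was 0.66 without the 2 farthest pigs. The second immune cutting subunit, PSMB8, had r = 0.46 with the macrophage markers (permutation p = 0.138, rho = 0.35, p = 0.267) and 0.27 without the 2 farthest pigs.

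The relations of constitutive genes to the contrast of the arrays did not pass the adjustment either. PSMB5 had r = 0.80 with the interquartile range (permutation p = 0.00228, adjusted p = 0.0503, rho = 0.72, p = 0.0104), 0.77 within groups and 0.70 without the 2 farthest pigs. PSMD5 had r = 0.78 (permutation p = 0.00359, adjusted p = 0.0503, rho = 0.78, p = 0.00413), 0.91 within groups and 0.70 without the 2 farthest. PSMA4 had r = 0.72 (permutation p = 0.00344, adjusted p = 0.0503, rho = 0.43, p = 0.160), 0.66 within groups and 0.49 without the 2 farthest. PSMB7 had r = 0.72 (permutation p = 0.00493, adjusted p = 0.0552, rho = 0.65, p = 0.0261), 0.65 within groups and 0.46 without the 2 farthest. PSMB4 had r = 0.68 (permutation p = 0.0161, adjusted p = 0.129, rho = 0.62, p = 0.0372), 0.84 within groups and 0.54 without the 2 farthest. PSMB6 had r = 0.61 (permutation p = 0.0295, adjusted p = 0.150, rho = 0.36, p = 0.245), which fell to 0.13 without the 2 farthest and so rested on those pigs. PSMC3 had its highest r, 0.64, with the cardiomyocyte markers (permutation p = 0.0214, adjusted p = 0.133, rho = 0.53, p = 0.0795), and 0.35 within groups.

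**Figure D5:**
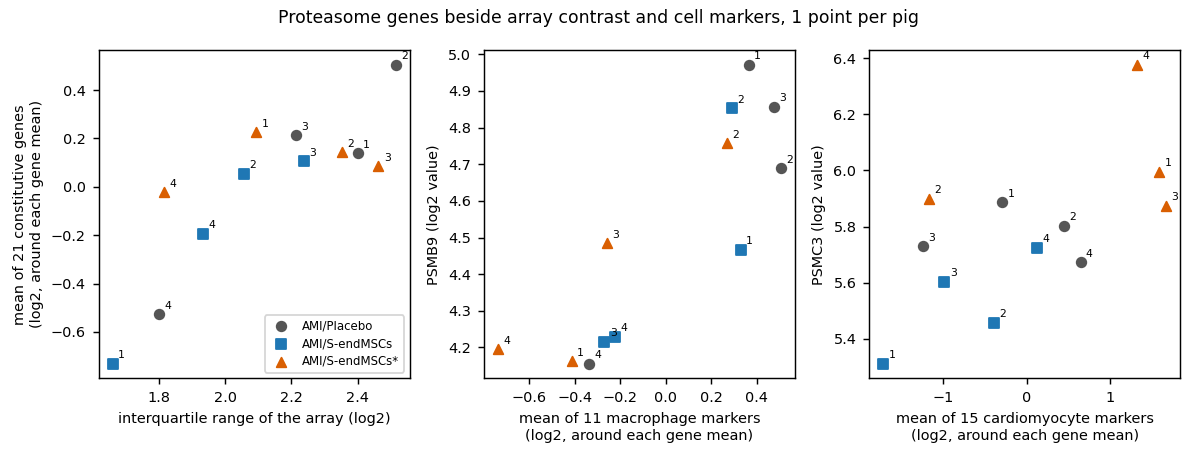
Left, mean of the 21 constitutive genes against the interquartile range of each array; middle, PSMB9 (brighter probe set) against the mean of 11 macrophage markers; right, PSMC3 against the mean of 15 cardiomyocyte markers; all in log2 units, 1 point per pig with its replicate number. The 4 arrays of lowest range have the 4 lowest constitutive means, PSMB9 has r = 0.86 with the macrophage mean and PSMC3 r = 0.64 with the cardiomyocyte mean, neither past the adjusted threshold.

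Genes that work with the proteasome were followed through lists outside the symbol rule. Of 8 partners and regulators of the particle, 1 was called higher and 0 lower in AMI/S-endMSCs* against AMI/Placebo, and the same counts held in AMI/S-endMSCs* against AMI/S-endMSCs, where all 8 were above 0 with a median of 0.38. In the latter comparison 68.8% of the bright genes were above 0, with a median of 0.19, and 12.1% were called higher; of all genes, 1.95% and 4.81% were called higher in these comparisons. The called gene was ZFAND5, a zinc finger protein that binds and activates the proteasome in mouse muscle. It read 5.94, 6.22, 5.60 and 5.40 in AMI/Placebo, 4.80, 6.18, 6.08 and 5.90 in AMI/S-endMSCs, and 6.79, 5.96, 6.71 and 6.95 in AMI/S-endMSCs*. In the primed group 3 pigs were above all others and replicate 2 was not. It was 0.82 higher than in AMI/Placebo (SE 0.330, unadjusted p = 0.0269) and 0.86 higher than in AMI/S-endMSCs (SE 0.330, unadjusted p = 0.0207), and neither was called with the cardiomyocyte mean as a covariate (unadjusted p = 0.120 and unadjusted p = 0.314) or with the leukocyte mean (unadjusted p = 0.0703 and unadjusted p = 0.0519). The call against AMI/Placebo was lost without any of AMI/Placebo replicates 3 and 4 and AMI/S-endMSCs* replicates 1, 3 and 4 (0.69 to 0.78, unadjusted p from 0.0555 to 0.0739), and that against AMI/S-endMSCs without AMI/S-endMSCs replicate 1 (0.55, unadjusted p = 0.0749) or AMI/S-endMSCs* replicate 4 (0.75, unadjusted p = 0.0585).

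NFE2L1, the transcription factor that raises proteasome subunit genes when the particle is inhibited, read 6.36, 6.35, 5.80 and 5.46 in AMI/Placebo, 3.91, 5.70, 5.74 and 6.02 in AMI/S-endMSCs, and 6.85, 6.16, 7.09 and 6.25 in AMI/S-endMSCs*. The treated groups did not overlap, and AMI/S-endMSCs replicate 1 was the lowest of all by over 1. It was higher by 1.24 (SE 0.417, limma unadjusted p = 0.0100, adjusted p = 0.580) after the primed than the basal secretome, and by 0.70 (unadjusted p = 0.158) with the cardiomyocyte mean as a covariate. It was the 1 gene called of the 4 measured in the list of proteasome transcription and stress response, with NFE2L2 at -0.08. In this comparison 4.81% of all genes and 12.1% of the bright genes were called higher. Groups were separated upwards in 1.79% of all genes and 3.85% of the bright genes. NFE2L1 kept its call without each of the 12 pigs in turn, and its difference was 0.77 (unadjusted p = 0.0252) without AMI/S-endMSCs replicate 1.

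Of 5 measured genes that deliver ubiquitinated proteins, 2 were called in AMI/S-endMSCs* against AMI/S-endMSCs, both higher, and 0 in the comparisons with placebo. In that comparison 4.81% of all genes and 12.1% of the bright genes were called higher. VCP, the segregase that extracts tagged proteins from complexes and membranes, read 7.06, 7.14, 7.27 and 6.51 in AMI/Placebo, 5.32, 6.95, 7.15 and 6.18 in AMI/S-endMSCs, and 7.18, 7.38, 7.38 and 7.24 in AMI/S-endMSCs*. The primed pigs again lay close together and above all pigs given the basal secretome, with a difference of 0.90 (SE 0.344, unadjusted p = 0.0209), which was 0.54 (unadjusted p = 0.0716) without AMI/S-endMSCs replicate 1 and 0.82 (unadjusted p = 0.0514) without replicate 4 of that group. RAD23B, a shuttle that carries ubiquitin chains to the 19S cap, was higher by 0.68 (SE 0.274, unadjusted p = 0.0273). Its call was lost without AMI/S-endMSCs replicates 1 or 4 or AMI/S-endMSCs* replicates 3 or 4 (0.47 to 0.66, unadjusted p from 0.0514 to 0.0945). With the cardiomyocyte mean as a covariate neither was called, with VCP at 0.89 (unadjusted p = 0.0646) and RAD23B at 0.59 (unadjusted p = 0.116). The muscle ubiquitin ligases FBXO32 (atrogin-1) and FBXO30 were at 0.71 (unadjusted p = 0.0856) and 0.70 (unadjusted p = 0.114).

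The inducible side of the system was followed through interferon gamma signalling and MHC class I peptide loading. Of 12 measured genes of interferon gamma signalling, 1 was called higher in AMI/S-endMSCs* against AMI/Placebo, the chemokine CXCL9 at 0.71 (SE 0.299, unadjusted p = 0.0330), beside 1.95% of all genes and 2.64% of the bright genes, and 0 in the other comparisons. IRF1, the factor that switches on the immunoproteasome genes, had means of 3.25 ± 0.33, 3.36 ± 0.34 and 3.34 ± 0.38 in AMI/Placebo, AMI/S-endMSCs and AMI/S-endMSCs*, with unadjusted p from 0.679 to 0.953. Of 8 genes of peptide loading, SLA-3, a pig class I heavy chain, was lower in AMI/S-endMSCs than in AMI/Placebo, at -0.87 (SE 0.360, unadjusted p = 0.0308). There 1.83% of all genes and 4.03% of the bright genes were called lower. Calnexin, CANX, was higher in AMI/S-endMSCs* than in AMI/S-endMSCs by 0.68 (SE 0.282, unadjusted p = 0.0309), where 4.81% of all genes and 12.1% of the bright genes were called higher. Each of these calls was lost without some single pigs: CXCL9 without AMI/Placebo replicates 1 or 4 or AMI/S-endMSCs* replicates 1 or 3 (0.52 to 0.67), SLA-3 without AMI/Placebo replicates 1 or 2 or AMI/S-endMSCs replicates 1 or 3 (-0.79 to -0.54), and CANX without AMI/S-endMSCs replicates 1 or 4 or AMI/S-endMSCs* replicates 1 or 2 (0.52 to 0.66). With the cardiomyocyte mean as a covariate neither CXCL9, at 0.58, nor SLA-3, at -0.72 (unadjusted p = 0.0655), was called. CXCL9 was not called with the leukocyte mean as a covariate (unadjusted p = 0.0608) or after median centring (unadjusted p = 0.0502), nor SLA-3 after quantile normalization (unadjusted p = 0.0540) or with array weights (unadjusted p = 0.0521).

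TAP1, which pumps the peptides into the endoplasmic reticulum and lies between PSMB8 and PSMB9 in the RefSeq gene order of Sscrofa11.1, read 5.05, 4.83, 4.63 and 4.87 in AMI/Placebo, 4.18, 4.10, 4.71 and 3.44 in AMI/S-endMSCs, and 3.70, 4.93, 5.42 and 3.59 in AMI/S-endMSCs*. Of the pigs given the basal secretome 3 were below all placebo pigs and replicate 3 was among them. The difference of -0.74 (95% interval -1.57 to 0.10) did not pass the test (unadjusted p = 0.0792). It did without AMI/S-endMSCs replicate 3 (-0.94, unadjusted p = 0.0392) or AMI/S-endMSCs* replicate 3 (-0.74, unadjusted p = 0.0459). Its neighbours PSMB8 and PSMB9 were at 0.07 and -0.23 in the same comparison.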

How the data were processed

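Affymetrix Porcine Gene 1.1 ST arrays were hybridised with RNA of 12 infarcted pig hearts, 1 array each. The authors made the deposited log2 values with RMA in oligo (versions not stated), which corrects background, normalizes by quantiles and summarises probe sets. RMA normalizes probes before it summarises them; the deposited probe set values do not share one distribution, with medians from 2.69 to 2.99 and interquartile ranges from 1.66 to 2.51 per array, and the cause was not tested. Array data have no read depth, and 4 pigs per group limit the precision.

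Of 27558 probe sets, 11982 had 1 symbol in the platform table, 373 several and 15203 none listed there. A gene was represented by its probe set of highest mean, and 969 genes had more than 1. All 12 arrays were fitted with limma 3.58.1 (R 4.3.3), 1 mean per group, and 3 comparisons were taken. Genes named with values were the immunoproteasome genes and their counterparts, called genes, the extreme uncalled constitutive genes per comparison, and called genes of the pathway lists with NFE2L1, IRF1, TAP1 and ZFAND5. The members and lists were chosen with earlier results of these data known. Relations were tested with 100000 permutations, two-sided. The fit was tested on simulated data. Alternatives are given in the closing section. The miRNA, qPCR and imaging data of the study were not analysed here.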

Additional observations from a re-analysis of the deposited data

Results flagged for a closer look

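In 42 sets of 4 pigs (14 named genes in 3 groups), 4 held a pig whose gap to the nearest of the others exceeded Dixon's 95% limit. Chance gives about 5% of such sets. In AMI/S-endMSCs replicate 1, PSME2 was at 4.71 with the nearest pig at 5.83, and PSMB4 was at 5.68 with the nearest at 6.45. PSMB4 was at 5.79 in AMI/S-endMSCs* replicate 4, with the nearest at 6.40. PSMA5 was at 3.49 in AMI/S-endMSCs* replicate 3, with the nearest at 4.96. AMI/S-endMSCs replicate 1 and AMI/S-endMSCs* replicate 4 are among the 4 arrays of lowest interquartile range, at 1.66 and 1.81, and AMI/S-endMSCs* replicate 3 is not, at 2.46. The part of array contrast in these values was not tested.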

How the results depend on the processing

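Proteasome genes called in AMI/S-endMSCs against AMI/Placebo, AMI/S-endMSCs* against AMI/Placebo and AMI/S-endMSCs* against AMI/S-endMSCs were 2, 0 and 3. They were 1, 1 and 1 after quantile normalization, 0, 0 and 2 with a trend in the moderation, 3, 1 and 4 with array weights, 0, 1 and 3 with the 2 compared groups alone, and 0, 0 and 0 with the cardiomyocyte mean as a covariate. Median centring and a filter on dim probe sets left the counts and genes at 2, 0 and 3. The leukocyte mean as a covariate left the counts, but PSMC3 was no longer called (0.46, unadjusted p = 0.0519) and PSMB5 was (0.62, unadjusted p = 0.0433), and averaging the probe sets of each gene gave 3, 0 and 3. Leaving out 1 pig at a time gave 0 to 6, 0 to 1 and 1 to 5. The count of 2 was 6 without AMI/Placebo replicate 4, 4 without AMI/S-endMSCs replicate 2, and 0 without AMI/S-endMSCs replicate 1 or 4 or AMI/Placebo replicate 2 or 3. The count of 3 was 1 without AMI/S-endMSCs replicate 1 and 5 without replicate 3. PSMC5 was the gene called in AMI/S-endMSCs* against AMI/Placebo after quantile normalization, array weights and the 2 groups alone. Of 25 alternatives, PSMC2 was called in 22, PSMC5 in 20, PSMC3 in 18, PSMB6 in 16 and PSMB7 in 12, with no change of direction. The cause was not tested.

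Chosen after seeing the data were the interquartile range of the array as a covariate (0, 1 and 4 called, the fourth being PSMD5, lower, at -0.55, unadjusted p = 0.0235), leaving out the 2 arrays of lowest range (4, 1 and 1, where the 1 against placebo was PSMB6, lower), and the dimmer probe sets of PSMA5 and PSMB9 (3, 0 and 3). With the range as a covariate the median of the constitutive genes was -0.01 instead of -0.18 in AMI/S-endMSCs against AMI/Placebo and 0.03 instead of 0.26 in AMI/S-endMSCs* against AMI/S-endMSCs. In AMI/S-endMSCs* against AMI/Placebo it changed sign, from 0.06 to -0.06 with the cardiomyocyte mean as a covariate, to -0.05 with array weights, to -0.18 without AMI/Placebo replicate 4 or without the 2 arrays of lowest range, and to -0.02 without AMI/S-endMSCs* replicate 1. The median of the immunoproteasome genes in AMI/S-endMSCs* against AMI/S-endMSCs changed from 0.12 to -0.04 after quantile normalization, to -0.005 with array weights, and to -0.03 without AMI/S-endMSCs replicate 1 or without the 2 arrays of lowest range.

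Replicate numbers of different groups mark different pigs. Of the 12 pairs of same-numbered arrays, 4 had correlated deviations over 0.1 (range -0.18 to 0.40). The highest was that of replicate 4 of AMI/S-endMSCs* with replicate 4 of AMI/Placebo. Replicate 4 of every group is among the 4 arrays of lowest interquartile range. The labels give no pairing, and these correlations cannot decide whether same-numbered arrays share something else. With the replicate number as a block 2, 0 and 3 genes were called.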
